A study of Rattus norvegicus with 2 samples.

Results

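Translation initiation factors are the proteins that bring the small ribosomal subunit, the initiator tRNA and an mRNA together at a start codon. eIF2 delivers the initiator tRNA with GTP and is recharged by the exchange factor eIF2B. eIF3 binds the small subunit and helps bring in the mRNA, and the eIF4 group binds the mRNA cap and unwinds the leader. The 4E-binding proteins block the cap-binding protein eIF4E, and phosphorylation through mTOR releases it. In regenerating liver, hepatocytes enlarge and make protein before and while they divide.

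The genes were those whose symbol on the array platform begins with Eif and a digit, without the eIF2 kinases Eif2ak1 to Eif2ak4 and without Eif2s3y. The rule found 44 of the 14217 genes that the platform's single-symbol probe sets name. They were measured in the rat, in the liver remnant that stays after partial hepatectomy (PH), an operation that cuts away some of the lobes. The 1/3PH rats lost the smaller share and the 2/3PH rats the larger share, and both remnants were taken at 24 h. Each group was a pool of total RNA from 3 rats read on 1 array, so that 6 rats gave 2 measurements. Strain, sex and age were not given in the sources used here, and neither unoperated nor sham-operated rats were analysed here, so every value is a difference between 2 operated livers. In the series' design text, strong DNA replication follows 2/3PH and little follows 1/3PH.

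A single array per group leaves no spread between replicates, and therefore neither tests nor p-values are given. All values are MAS 5.0 signals, a per-array scaled brightness for each probe set, and the ratio is the log2 difference, 2/3PH minus 1/3PH. Signals of single genes are not compared with each other, but signals are set against a floor and those of cell markers are summed. The floor, a signal of 89.2, was the median over probe sets that were not controls, and 9514 genes reached it. The 1 yardstick of error within the arrays was the disagreement of probe sets of the same gene, an SD of 0.33 in log2 ratio over 2067 genes, and this holds no variation between rats.

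The 2 arrays had a Pearson correlation of 0.918 over all probe sets. Liver identity was checked on hepatocyte markers, all 11 of which lay above the floor, and albumin (Alb) reached 34570.2 in the 1/3PH pool and 29468 in the 2/3PH pool. The division genes of a reference list were higher after 2/3PH in 10 of 10 cases by at least 2-fold, with a median log2 ratio of 3.04. The log2 difference between the 3′ and 5′ probe sets of Gapdh, a sign of RNA and labelling quality, was 0.66 for 1/3PH and 0.36 for 2/3PH, and that of beta-actin was 2.74 and 2.91.

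Initiation factor genes were mostly higher after 2/3PH, by small amounts. Of the 44 genes, 43 lay above the floor, and the exception was Eif5a2. Of those 43, 37 (86.0%) had ratios above 0, beside 52.9% of all genes above the floor. Their median log2 ratio was 0.46, or 1.38-fold, beside 0.03 for all genes. At least 1.5-fold higher were 13 of 43 (30.2%), beside 15.8% of all genes, and at least 1.5-fold lower was 1 of 43 (2.33%), beside 12.0%. At the 2-fold limit the counts were small. Only Eif2s1 was at least 2-fold higher, 1 of 43 (2.33%) beside 6.12% of all genes, and none was at least 2-fold lower beside 3.68%. The SD of the members' ratios was 0.39, beside 0.66 for all genes, and their middle 50% of values ran from 0.27 to 0.61.

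**Figure D1:**
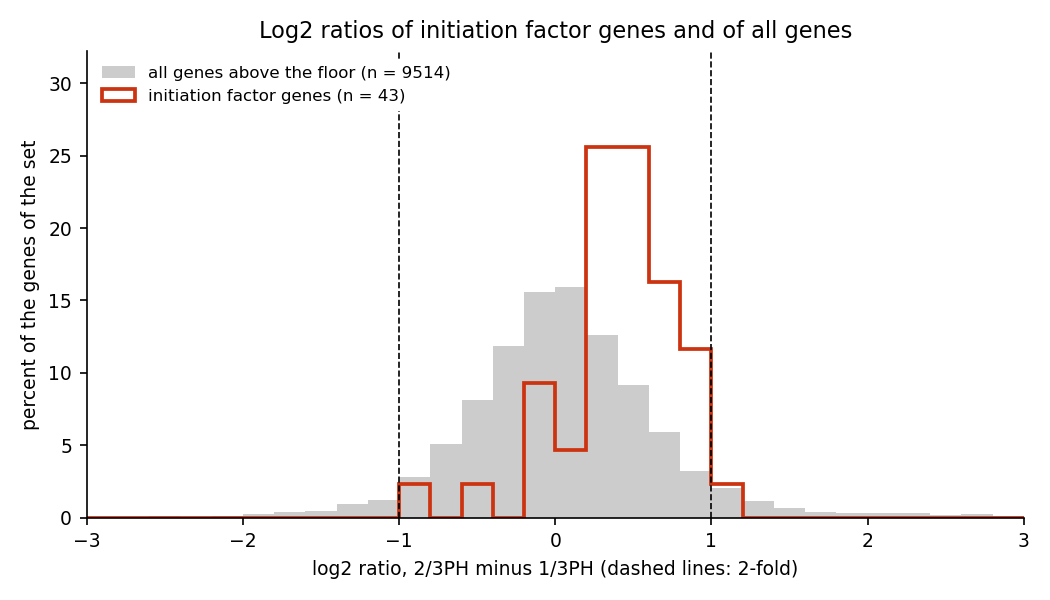
Distribution of log2 ratios (horizontal axis, 2/3PH minus 1/3PH, in bins of 0.2) for the 43 initiation factor genes above the floor (red outline) and all 9514 genes above it (grey), each as a percent of its own set; 25 genes lie outside the plotted range. The red outline is centred to the right of the grey one, at a median of 0.46, and crosses the dashed 2-fold line with 1 gene only.

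These genes were bright on the arrays. Of the 43, 41 (95.3%) also passed a floor at the 75th percentile of probe sets, a signal of 448, which 60.2% of the 9514 genes passed. Among these bright genes the contrast was the same in kind: 36 of 41 members (87.8%) had ratios above 0 beside 52.5% of 5729 genes, and 12 of 41 (29.3%) were at least 1.5-fold higher beside 14.0%.

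MAS 5.0 sets both arrays to the same mean, so these values hold no measure of total RNA per cell. The scalings on added controls below were not read as such a measure either. When the arrays were scaled instead on the added hybridisation controls, the median of all genes moved to 0.30 and that of the initiation factors to 0.72, and on the poly-A controls to 0.47 and 0.90. The distance between the medians is 0.43 under the deposited, the hybridisation control and the poly-A control scaling, since each shifts all genes alike. Ratios above 0 then numbered 41 of 43 under either control scaling, beside 72.8% and 81.7% of all genes, and 7 (16.3%) and 14 (32.6%) members were at least 2-fold higher, beside 10.8% and 16.4%. At the 2-fold limit the members' share was thus below that of all genes under the deposited scaling and above it under both control scalings.

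**Figure D2:**
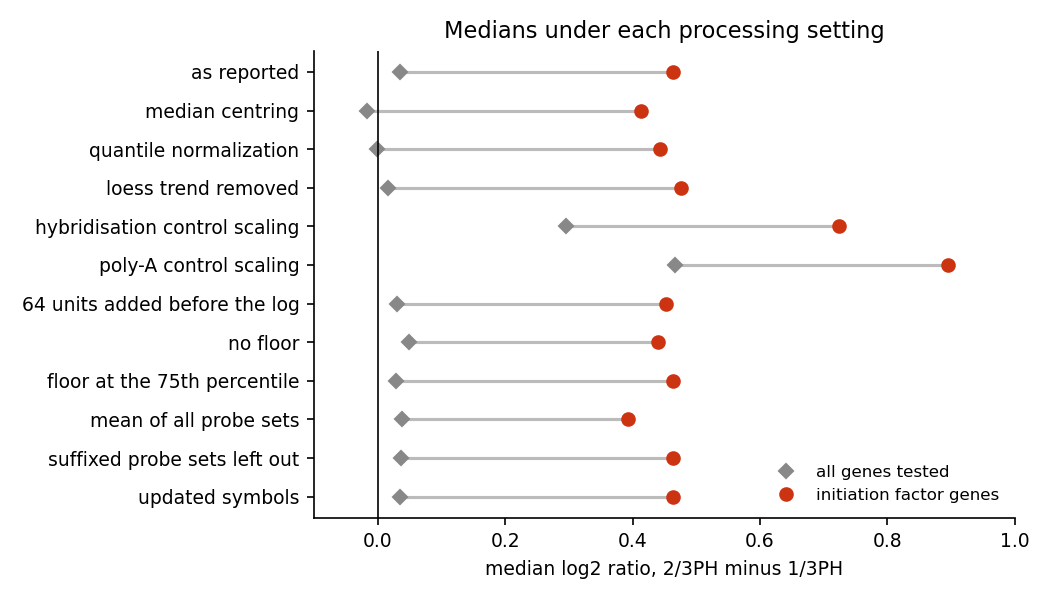
Median log2 ratio (horizontal axis, 2/3PH minus 1/3PH) of initiation factor genes (red circles) and of all genes tested (grey diamonds) under the deposited scaling and each alternative. The red circle lies right of the grey diamond in all rows, at 0.39 at its lowest with the mean of all probe sets.

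Markers of several other liver cells differed between the pools in the other direction. All 15 Kupffer cell and macrophage markers were lower after 2/3PH, and their summed signal was 35650.1 for 1/3PH and 24535 for 2/3PH. Fewer, 12 and 9 of the 15, were lower under hybridisation and poly-A control scaling. Of all genes above the floor, 72.8% and 81.7% had ratios above 0 under those scalings, and 52.9% under the deposited one. Endothelial markers were lower in 11 of 12 cases, or 8 and 7 under the control scalings, with sums of 15639 and 10310.1. Stellate cell and matrix markers were lower in 11 of the 14 above the floor, or 9 and 8 under the control scalings, with sums over all 15 of 19879 and 12832, and Acta2 was below the floor. The 5 neutrophil and erythroid markers above the floor were all lower, with sums over 6 of 30257 and 14712, and Slc4a1 was below it. Hbb alone gave 24195.5 and 12168 of those sums. The 11 hepatocyte markers were lower too, at a median of -0.22 that was 0.02 under quantile normalization and 0.04 and 0.21 under the control scalings, with sums of 322659 and 277865. Of 11 lymphocyte markers 9 were below the floor, Cd3e, Cd3d, Cd3g, Cd4 and Cd8a among them, and the sums were 677 and 577. The 7 cholangiocyte and progenitor markers had sums of 1463 and 1557, with 3 of the 4 above the floor higher, and the 9 mesothelial and pancreatic markers 1428 and 1196, with 3 of 4 lower. The part of cell composition in the initiation factor values was not tested, and in whole tissue fewer cells of a type and less RNA per cell cannot be told apart.

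Promoter sequences were examined because most of the genes lay on the same side of 0. RefSeq's promoter table for the rat assembly GRCr8 held 43 windows for 40 of the 44 genes, each from 250 bases before to 50 after an annotated start. The E-box CACGTG, the letters bound by Myc with Max, was present on either strand in 9 of the 43 windows (20.9%). All 33469 windows of the table held it in 6.42%, and the 8825 windows of genes above the floor in 9.54%. The 43 member windows include that of Eif5a2, a gene below the floor. The 9 genes were Eif1b, Eif3a, Eif3b, Eif3f, Eif4e, Eif4g1, Eif4h, Eif5a and Eif5a2. The 8 such genes above the floor had a median log2 ratio of 0.50, and the 31 with a window but no E-box had 0.47, a difference that was not tested. Myc itself was 1.59-fold higher, with signals of 332 and 528. Of 8 genes above the floor in the list of Myc and its partners, 4 (50%) had ratios above 0, beside 52.9% of all genes. Those 4 were Myc (0.67), Zbtb17 (0.48), Mlx (0.28) and Max (0.07). The lower ones were Mxd4 (-0.96, at 281 and 144), Mnt (-0.49), Mxd1 (-0.29) and Mxi1 (-0.10). Mxi1 was above 0 under both control scalings and Mxd1 under the poly-A one. The median of the 8 genes was -0.02, or 0.24 and 0.41 under the control scalings. Of the other motifs searched on both strands, the E2F form TTTGGCGC was in 1 member window (Eif3c, 2.33%). It was in 0.493% of all windows and in 0.941% of those of genes above the floor. TTTCGCGC was in 0 member windows, in 0.326% of all and in 0.703% of those of genes above the floor. For the C/EBP-ATF element TGATGNAAT these were 0, 1.09% and 0.533%. These are matches of letters and not measured binding.

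The 250 bases before the start are shown for 3 genes, 5′ to 3′ on the gene's strand, with E-boxes in capitals. Eif2s1 (chr6:103405630-103405879, plus strand) is shown as the gene with the largest ratio and has no E-box there. Eif4e (chr2:229740503-229740752, plus strand), which encodes the cap-binding protein, has one that starts 237 bases before the start and another that starts 80 before it. Eif5a (chr10:55143222-55143471, minus strand) has one that starts 206 bases before it.
Eif2s1: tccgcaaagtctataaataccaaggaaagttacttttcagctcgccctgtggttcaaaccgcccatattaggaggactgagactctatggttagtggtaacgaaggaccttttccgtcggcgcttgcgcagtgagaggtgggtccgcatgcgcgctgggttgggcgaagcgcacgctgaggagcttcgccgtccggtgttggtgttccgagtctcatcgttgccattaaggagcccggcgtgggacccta
Eif4e: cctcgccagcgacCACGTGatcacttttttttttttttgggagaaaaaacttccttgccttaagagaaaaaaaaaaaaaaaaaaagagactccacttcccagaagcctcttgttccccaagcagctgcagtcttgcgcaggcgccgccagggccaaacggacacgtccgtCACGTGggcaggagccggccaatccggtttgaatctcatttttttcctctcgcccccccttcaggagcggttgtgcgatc
Eif5a: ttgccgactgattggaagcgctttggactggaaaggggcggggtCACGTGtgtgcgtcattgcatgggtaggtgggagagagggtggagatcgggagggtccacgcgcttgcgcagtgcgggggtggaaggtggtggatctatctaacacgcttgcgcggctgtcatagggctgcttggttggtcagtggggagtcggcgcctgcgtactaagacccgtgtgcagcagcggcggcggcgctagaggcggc

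The factors that work on the small subunit at the start codon were all higher, within a narrow range. Eif1ax and Eif1a encode forms of eIF1A, which with eIF1 keeps the subunit scanning. Eif1ax read 2264 in the 1/3PH pool and 3162 in the 2/3PH pool, 1.40-fold higher. Eif1a had 2819 and 3757, 1.33-fold higher. Its 4 probe sets, all above the floor, gave log2 ratios from 0.40 to 0.58, and no other member had as many above it. Eif1b, a close relative of eIF1, had 1701 and 2211, and Eif1ad, a protein with an eIF1A-like domain, 1557 and 2370.4, or 1.52-fold. The 4 genes had a median log2 ratio of 0.45.

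The 3 subunits of eIF2 included the member with the largest difference. Eif2s1 encodes the alpha subunit, whose phosphorylation by the eIF2 kinases slows initiation in stress. Its signal was 2517 in the 1/3PH pool and 5685 in the 2/3PH pool, 2.26-fold higher at a log2 ratio of 1.18. It stayed at least 2-fold higher under each of the 6 other scalings, with log2 ratios of 1.12 to 1.61. Eif2s3, the gamma subunit that binds GTP and the initiator tRNA, had 737 and 1341, 1.82-fold higher. Eif2s2, the beta subunit, had 4588 and 6788, 1.48-fold higher. The subunits were thus all higher, and the alpha and beta ratios lay 0.61 apart on the log2 scale. The probe-set SD of 0.33 describes single ratios and not a difference between 2, so that distance was not tested. Each of the 3 had a single probe set, so none had a second reading on these arrays. Eif2a and Eif2d encode factors outside eIF2 that can also bring initiator tRNA to the ribosome. Their differences were smaller: Eif2a had 1049.7 and 1302, 1.24-fold higher, and Eif2d 1791 and 2335, 1.30-fold.

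All 5 genes of eIF2B, which exchanges GDP for GTP on eIF2, were higher, with a median log2 ratio of 0.39. Eif2b3, the gamma subunit, stood at 309 for 1/3PH and 599 for 2/3PH. At 1.93-fold it had the highest ratio of the set after Eif2s1 and lay just inside the 2-fold limit. It was at 2-fold or more under both control scalings. Eif2b5, the catalytic epsilon subunit that partners it, differed less, with 467 and 610.3, or 1.31-fold, and its other probe set gave 0.35 beside 0.39. Eif2b4 had 1184 and 1796, 1.52-fold higher. The remaining regulatory subunits lay close together, Eif2b1 at 856 and 1106 and Eif2b2 at 446 and 559.8, with log2 ratios of 0.37 and 0.33.

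The 11 measured eIF3 subunits were higher without exception, and 4 of them by at least 1.5-fold. Their median log2 ratio was 0.53, and their ratios had an SD of 0.21. Eif3d, a subunit that can itself bind certain mRNA caps, led with 2311 after 1/3PH and 4257 after 2/3PH, 1.84-fold higher. Eif3i had 3431 and 5658, 1.65-fold, and Eif3k 1844 and 3006, 1.63-fold. A second, dimmer probe set of Eif3k had 79.7, under the floor, and 137, and no ratio is read from it. Eif3b, part of the scaffold with eIF3a and eIF3i, had 1507 and 2297, 1.52-fold higher. Eif3a, the largest subunit, had 4132 and 5969.7, 1.44-fold, but its second probe set, at 224 and 239, gave a log2 ratio of only 0.09.

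Most other eIF3 subunits lay between 1.29-fold and 1.49-fold. Eif3m had 5392 and 8029, and Eif3j, a loosely bound subunit, 3384 and 4789. Eif3l had 3674 and 5085, Eif3f 3622 and 4715, and Eif3c 3247 and 4189. The low end was Eif3h, with 5279 and 5693, 1.08-fold higher. Second probe sets above the floor gave a smaller ratio for Eif3j (0.02 beside 0.50) and Eif3l (0.11 beside 0.47) and a larger one for Eif3c (0.60 beside 0.37). The order of subunits within this complex is therefore not settled by these arrays, whereas the sign was positive for each probe set above the floor on both arrays.

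**Figure D3:**
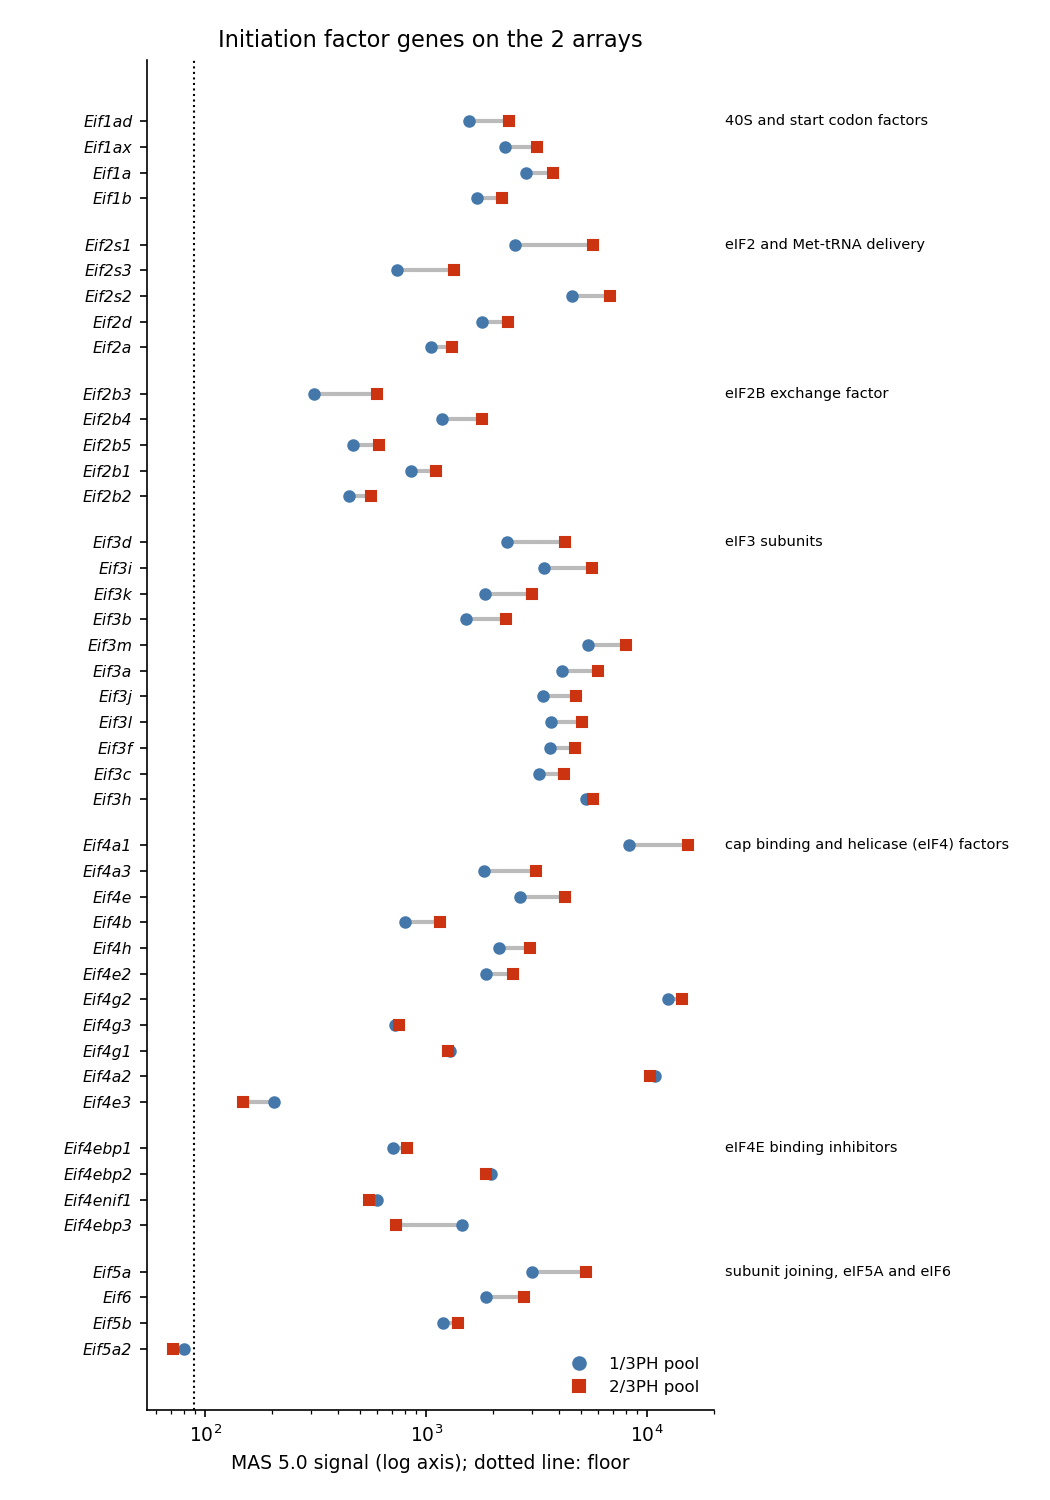
MAS 5.0 signal (log axis) of all 44 initiation factor genes on the 1/3PH array (blue circles) and the 2/3PH array (red squares), grouped by role and ordered by ratio; the dotted line is the floor of 89.2. In the upper 4 groups the red square lies right of the blue circle for each gene, and in the eIF4 and inhibitor groups the order is mixed, with Eif4ebp3 at 1454 and 730.4.

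The eIF4 group, which binds the cap and unwinds the mRNA leader, had ratios on both sides of 0. Differences between its paralogs depended in part on the probe set and the scaling. Of its 11 genes, 8 had ratios above 0 and 3 below. Eif4a1 encodes the main form of the helicase eIF4A of growing cells. Its signals were 8296 for 1/3PH and 15359 for 2/3PH, 1.85-fold higher. Eif4a2, the form associated with quiescent tissue, had 10911 and 10316, a log2 ratio of -0.08 that was above 0 under quantile normalization, loess and both control scalings. The pair stood 0.97 apart on the log2 scale. A second Eif4a2 probe set, dimmer at 364 and 845, gave 1.21, so the reading for Eif4a2 turns on the probe set used. Eif4a3, a relative that works in the exon junction complex, had 1823 and 3137, 1.72-fold higher.

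The cap-binding proteins also had ratios on both sides of 0. Eif4e, which binds the cap in the eIF4F complex, had 2667 and 4233, 1.59-fold higher by its bright probe set. Its other 2 probe sets lay below the floor, at 115 and 18.7 and at 62.3 and 75.3, and their inclusion in a mean over all probe sets turned the gene's log2 ratio to -0.56. Eif4e2, a weaker cap binder linked to repression, had 1875 and 2480.4, 1.32-fold higher. Eif4e3, another divergent cap binder, was 1.39-fold lower, at 206 and 148, and its dimmer probe set below the floor was lower as well, at 101 and 66.4. Eif4e and Eif4e3 stood 1.14 apart on the log2 scale, and Eif4e3 stayed below 0 under all 6 other scalings, at -0.04 at the nearest.

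The eIF4G scaffolds, which join the cap-binding protein to eIF3, differed little. Eif4g1 had 1281 and 1257, a log2 ratio of -0.03 that was above 0 under both control scalings, and its 3 probe sets above the floor ran from -0.19 to 0.18. Eif4g3 had 723 and 754, at 0.06, which was below 0 under quantile normalization. Eif4g2, a relative that lacks the site for eIF4E, had 12454 and 14364, at 0.21, with 3 probe sets from 0.13 to 0.42. The helicase helpers were higher by more: Eif4b had 802 and 1154, 1.44-fold, with 0.28 by its second probe set, and Eif4h 2136 and 2946, 1.38-fold. Another probe set of Eif4h, at 44.9 and 4.79, lay below the floor on both arrays.

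**Figure D4:**
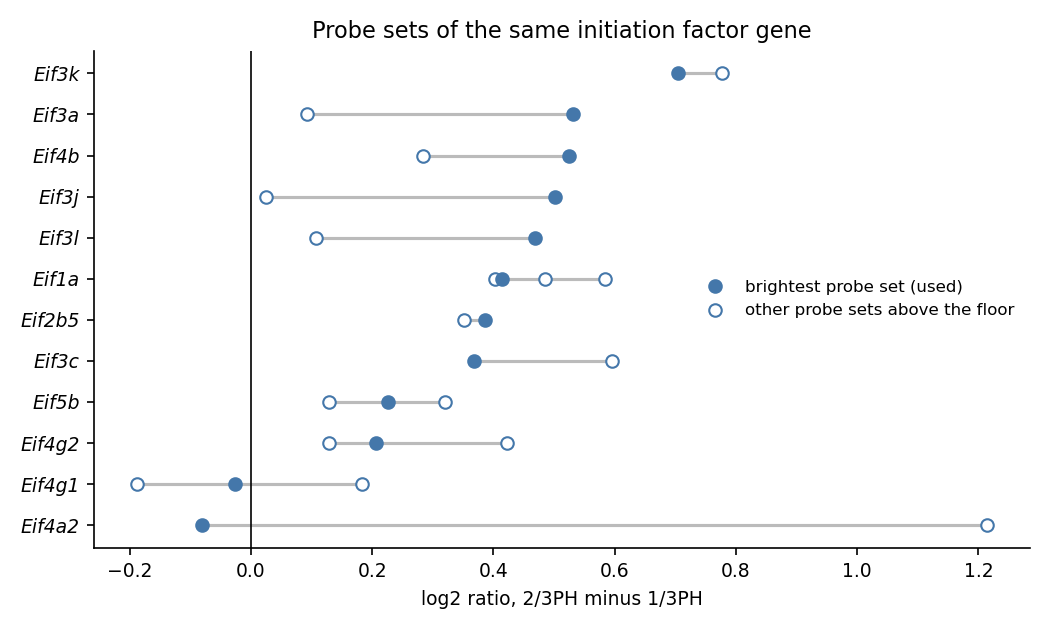
Log2 ratio (horizontal axis, 2/3PH minus 1/3PH) of each probe set above the floor for the 12 initiation factor genes with more than 1 such probe set; filled points are the brightest probe set and open points the others. In 10 of the 12 genes all points lie on the same side of 0, and Eif4a2 and Eif4g1 are the exceptions; the open point of Eif3k has a 1/3PH signal under the floor.

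Of the 4 eIF4E-binding inhibitors, 1 had a ratio above 0 and 3 below it, and 2 of the 3 were above 0 under both control scalings. Eif4ebp3, which encodes 4E-BP3, stood at 1454 for 1/3PH and 730.4 for 2/3PH, 1.99-fold lower. This was the lowest ratio of the set, at -0.99, and lay just inside the 2-fold limit. It stayed below 0 under the 6 other scalings, from -1.07 to -0.56, and passed 2-fold under median centring, quantile normalization and loess. Eif4ebp1, the best-studied 4E-BP and a target of mTOR, had 709.8 and 819.6, at 0.21. Eif4ebp2 had 1965 and 1871, at -0.07, and Eif4enif1, a shuttling protein that carries eIF4E to the nucleus, 597 and 554, at -0.11. These last genes are the ones above 0 under both control scalings. The distance from Eif4ebp1 to Eif4ebp3 was 1.20 on the log2 scale, the widest of the paralog pairs compared. Eif4ebp1, Eif4ebp2 and Eif4ebp3 each had a single probe set, so none had a second reading on these arrays. Ankhd1 is the gene next to Eif4ebp3 in RefSeq's GRCr8 annotation, and transcripts that run through both are known in human; it was looked up after the Eif4ebp3 value was seen. Its 2 probe sets above the floor had log2 ratios of -0.26 and -0.08, and another lay below it. Whether such transcripts add to the Eif4ebp3 signal was not tested.

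The factors of the last steps were higher where they were measured. Eif5a encodes eIF5A, which carries the modified residue hypusine and helps the ribosome through difficult peptide bonds. It had 3029 after 1/3PH and 5305 after 2/3PH, 1.75-fold higher. Its relative Eif5a2 lay below the floor on both arrays, at 79.9 and 71.3, and no fold is given for it. Eif6, which keeps the large subunit from joining too early and also acts in ribosome assembly, had 1866 and 2761, 1.48-fold higher. Eif5b, the GTPase of subunit joining, had 1195 and 1397, 1.17-fold higher, and all 3 of its probe sets lay between 0.13 and 0.32.

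Over all members, 53 of 60 probe sets above the floor had ratios above 0. That count and the SD given next include the dimmer Eif3k probe set, whose 1/3PH signal lay under the floor. The SD between probe sets of the same initiation factor gene was 0.28, close in size to many of the ratios described, so that single genes near the median of 0.46 are not separable from each other on these arrays. A further 5 probe sets carried an initiation factor symbol together with another symbol and were not used.

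The eIF2 kinases phosphorylate eIF2 alpha and feed the integrated stress response. Eif2ak1, the heme-regulated kinase, had 1422 and 1053, a log2 ratio of -0.43, and Eif2ak4, the amino acid sensor GCN2, 467 and 325, at -0.52. Eif2ak2 (PKR) had 547 and 498 and Eif2ak3 (PERK) 476 and 415, at -0.13 and -0.20. All 4 kinases were thus lower, each by less than 1.5-fold, but Eif2ak2 and Eif2ak3 were above 0 under both control scalings. Ppp1r15b, which directs a phosphatase to eIF2 alpha, was 1.64-fold lower at 3213 and 1962. In the whole integrated stress response list, 12 of 26 genes above the floor (46.2%) had ratios above 0, beside 52.9% of all genes, and the median was -0.10, or 0.16 and 0.33 under the control scalings. Past the 2-fold limit were 3 higher genes (11.5%, beside 6.12%) and 0 lower ones. The transcription factor Atf4 had 3995 and 3028, at -0.40, and Ddit3 628 and 590.5, at -0.09, and both were above 0 under poly-A control scaling. The 3 higher genes were Mthfd2, 4.58-fold at 92.3 and 423, Phgdh, 3.29-fold at 274 and 901, and Psat1 at 519 and 1350.2, a log2 ratio of 1.38. They encode enzymes of serine and one-carbon metabolism, which also supply nucleotide synthesis. Ddit4, an inhibitor of mTOR, was 1.96-fold lower at 397 and 203.

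The mTOR and Mnk kinases signal to initiation through the 4E-binding proteins, S6 kinase and eIF4E. Of 30 genes of mTOR and Mnk signalling above the floor, 13 (43.3%) had ratios above 0, beside 52.9% of all genes, and the median was -0.04, or 0.22 and 0.39 under the control scalings. The list mixes kinases of the pathway with inhibitors of it, so its share and median give no direction for the pathway. The 2-fold limit was passed by 3 lower genes of the 30, beside 3.68% of all genes, and by 0 higher ones, beside 6.12%. Mtor had 794 and 934, at 0.23, and the S6 kinase Rps6kb1 615 and 657, at 0.09 and at -0.00079 under quantile normalization. The 3 lower genes were Sesn1, which restrains mTOR, 2.52-fold at 918 and 365, Deptor, an mTOR-binding inhibitor, 2.48-fold at 2564 and 1035, and Mknk2, which phosphorylates eIF4E, 2.29-fold at 577 and 252. Mknk1 had 252 and 304, at 0.27. Pdcd4, which blocks the helicase eIF4A, was 1.57-fold lower at 1503 and 959.9. Ppp2ca, a phosphatase subunit, was the highest of the list, 1.89-fold at 967 and 1827.

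Partners at the cap, the poly(A) tail and the small subunit were mostly higher, 24 of 31 (77.4%), beside 52.9% of all genes. Their median was 0.32. Only Cyfip2 was at least 2-fold higher (3.23%, beside 6.12% of all genes). Its difference is given as at least 2.03-fold because its 1/3PH signal lay under the floor. Pabpc4, a poly(A)-binding protein, had 2559 and 4340.2, 1.70-fold higher. Denr, which recycles and reloads the small subunit, had 1101 and 1805, 1.64-fold, and Mcts2 684 and 1161, 1.70-fold. The genes that modify eIF5A were higher along with it: Dhps had 442 and 578, 1.31-fold, and Dohh 549 and 792, 1.44-fold. Spermidine, the substrate of Dhps, is made by Srm, which was 2.22-fold higher at 977 and 2172, from putrescine supplied by Odc1, 1.74-fold higher at 3613 and 6302. Sms, which makes spermine, was 2.00-fold higher at 265 and 530.3, and Sat1, which breaks both down, 1.78-fold lower at 4298 and 2412. Paox, a polyamine oxidase, was 1.47-fold higher at 1211 and 1782, however, and Amd1 had a log2 ratio of -0.0078. In the list of eIF5A modification and polyamine supply, 8 of 11 (72.7%) had ratios above 0, beside 52.9% of all genes, with a median of 0.39.

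Other steps of translation gave smaller medians side by side with the 0.46 of the initiation factors, and no difference between the lists was tested. Elongation and termination genes had 13 of 19 (68.4%) above 0, beside 52.9% of all genes, and a median of 0.31. Eef1e1, a scaffold protein of the synthetase complex, was the 1 gene of that list at least 2-fold higher (5.26%, beside 6.12% of all genes). It had 1314 and 2886, and Eef1d had 4933 and 7416, at 0.59. Eef2k, the kinase that stops eEF2, was at least 1.78-fold lower, its 2/3PH signal lying under the floor. The 39 cytosolic ribosomal protein genes above the floor were higher in 36 cases (92.3%). Their median of 0.17 became 0.33 under quantile normalization and 0.31 under loess. Of 19 cytosolic aminoacyl-tRNA synthetase genes 15 (78.9%) were higher, at a median of 0.36. None of these synthetase or ribosomal protein genes passed 2-fold in either direction, beside 6.12% of all genes higher and 3.68% lower.

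**Figure D5:**
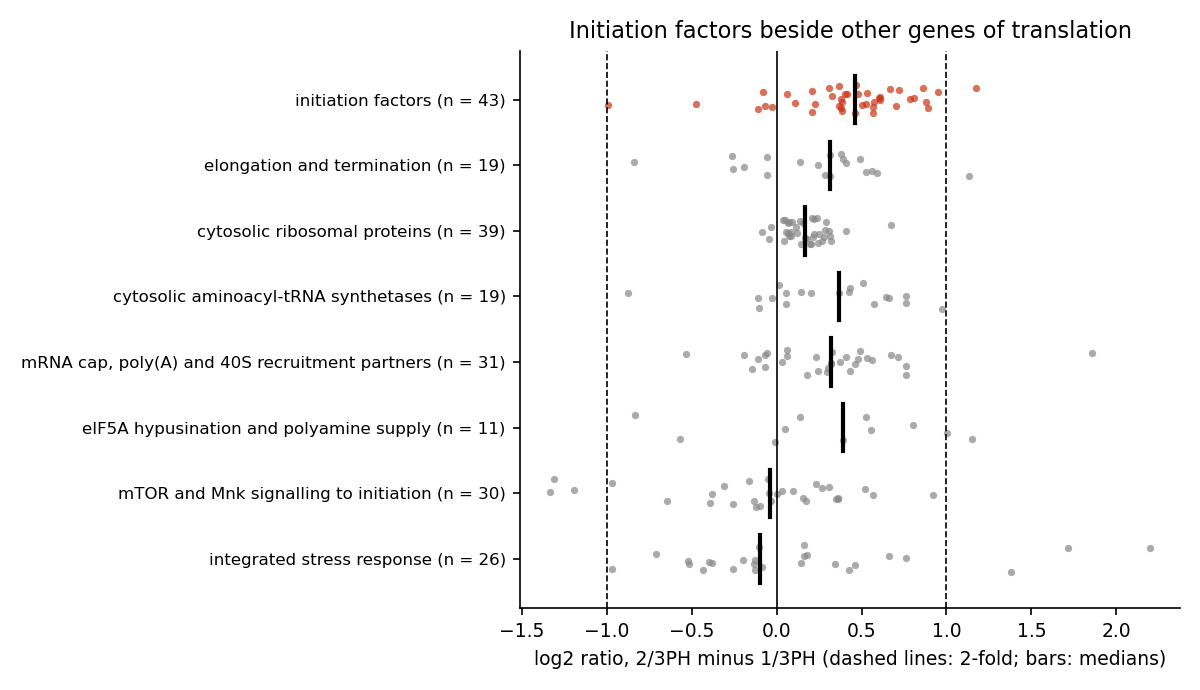
Log2 ratios (horizontal axis, 2/3PH minus 1/3PH) of initiation factor genes (red) and of 7 other gene lists of translation and its control (grey), each point a gene above the floor and each bar a list median; vertical scatter within a row carries no value. Medians run from 0.46 for initiation factors to -0.10 for the integrated stress response list. The stress response list and the mTOR and Mnk list mix genes of opposing action.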

How the data were processed

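Per the labels' protocols, biotin-labelled cRNA was hybridised to Affymetrix arrays, scanned with Command Console 3.1 and summarised with MAS 5.0 in GeneSpring 11.0. What the authors deposited is the log2 signal of each of 31099 probe sets, 57 of them controls. As a check of the base, 2 was raised to each value: after trimming 2% at either end, the arrays averaged 500.3 and 500.2. Sources used here give neither detection calls nor the scaling target. Probe sets were named from the platform annotation: 20826 had 1 symbol, 436 several and 9780 none. A gene was represented by whichever probe set was brightest on average over both arrays. For a gene whose weaker array fell short of the floor, the floor takes that array's place and the fold is given as "at least".

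Members, lists and alternatives were chosen with earlier results of these data known. Most genes were named by rule: all members, up to 4 genes per pathway list with the largest absolute ratio, and fixed regulators. Ppp1r15b, Ppp2ca, Paox, Amd1, Ankhd1 and some genes of the Myc list were named outside that rule. Trib3 of the stress response list, with a log2 ratio of 0.76, was not named above, although Ppp1r15b, with a smaller absolute ratio, was. The list entries Miz1 and Pdk1 were dropped, since those symbols name other genes here; entries with no matched probe set were not used. Ribosomal protein and synthetase genes were added later, by symbol. The ratio and scaling code was checked on simulated arrays with known ratios; the real ratios have no test. Calculations used Python 3.11.15, pandas 2.3.3 and statsmodels 0.14.6 (loess span 0.4).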

Additional observations from a re-analysis of the deposited data

How the results depend on the processing

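With 1 array per group no replicate could be left out and no paired analysis was possible because there is 1 pool per group; the number of arrays and the signal over background limit every value. The count of genes with ratios above 0 (37) lay between 34 and 41 under all alternatives run. The median log2 ratio of 0.46 was 0.72 when scaled on hybridisation controls and 0.90 on poly-A controls, and between 0.39 and 0.48 otherwise. The 1 gene at least 2-fold higher became 2 under quantile normalization and under loess, 7 on hybridisation controls, 14 on poly-A controls, 13 at a 1.5-fold limit and 0 at a 3-fold limit. The 0 genes at least 2-fold lower became 1 under median centring, quantile normalization, loess, the mean of all probe sets and the 1.5-fold limit. That gene was Eif4h under the mean of all probe sets and Eif4ebp3 under the others. The mean of all probe sets takes in probe sets below the floor, and turned Eif4e to -0.56, Eif3h to -0.95 and Eif4h to -1.38. Under the 6 other scalings 36 of 43 genes stayed above 0 and 2 below.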
